A study of Mus musculus with 8 samples.

Results

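Type I interferons are secreted cytokines that bind the receptor made of IFNAR1 and IFNAR2, which nearly every cell carries. The kinases JAK1 and TYK2 then activate transcription factors of the STAT family, which join IRF9 and bind the interferon-stimulated response element (ISRE) in the promoters of many genes. The products of these genes sense foreign nucleic acid, degrade or edit RNA, block translation and virus assembly, or act back on the pathway. In T cells they serve as a read-out of interferon exposure.

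The response was followed in regulatory T (Treg) cells through 36 interferon response genes, selected by symbol from 52459 genes listed. They had been selected because their values rise in stimulated cells labelled Stim1/2-deficient, and the group they rise against is not stated. For these 36 genes, everything computed from the stimulated libraries is therefore a description and carries no test. Other genes were tested in stimulated cells as well. The genotype difference in unstimulated cells was between other libraries and was tested, in a model that took its spread from all 8 libraries. If the rise was read against unstimulated cells labelled deficient, those libraries entered the selection too. All 36 genes were listed and all 36 passed the filter of a mean of at least 10 normalized counts over 8 libraries, as did 15419 genes in all. Ifit3b passed only through the stimulated libraries labelled deficient, since its mean over the other libraries was 7.16.

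The libraries were RNA sequencing libraries of C57BL/6 Treg cells labelled Foxp3+CD25+, 2 for each of 4 groups. The cells labelled DKO carried Stim1 fl/fl and Stim2 fl/fl, the conditional alleles of the calcium sensors of the endoplasmic reticulum, and Foxp3-YFPcre, a Cre recombinase under the promoter of Foxp3, the lineage factor of Treg cells. The WT cells were, per the methods, YFPcre-negative Treg cells from the same kind of heterozygous female mice, so that they carried the floxed alleles as well but did not express Cre. Both were sorted as CD4+ cells with high CD25, and only the sort of the deficient cells also required YFP, which is expressed with Foxp3. Genotype and this difference in sorting cannot be told apart. Cells of both genotypes were left unstimulated or kept for 16 h on plate-bound anti-CD3/CD28 at 1 µg/ml. For each library the spleens and lymph nodes of several mice were pooled, the unstimulated WT libraries are numbered 3 and 4, and those of the other groups 1 and 2. The age of the mice is not given in the labels. All unstimulated libraries were run on a different lane from all stimulated ones, and stimulation and lane cannot be told apart.

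Between 11851853 and 16306540 reads per library were counted on genes. Values are given as normalized counts, reads scaled by the authors with a size factor for each library, and 1 read equalled 0.759 to 1.48 of them. Foxp3 was present in all 8 libraries, with 4258 to 11918 normalized counts. The sum of 8 Treg and T cell genes, Foxp3 among them, was lower in libraries labelled DKO. It was 96220 and 89372 in unstimulated WT libraries, and 42856 and 50361 in those labelled DKO. After stimulation it was 98187 and 116693 in WT libraries, and 70916 and 89661 in those labelled DKO. Neither targeted gene was called in either state (limma adjusted p from 0.236 to 0.827), and unstimulated WT libraries held 1139 and 1377 normalized counts of Stim1, against 1538 and 1868 in those labelled DKO. Counts over a whole gene do not show whether single exons were deleted, so that in these libraries the genotype rests on the label. Apart from the sequencing, the study reports that YFP-positive Treg cells of such females lacked the calcium influx that follows store depletion. Macrophage transcripts set the unstimulated DKO libraries apart: the sum of 15 macrophage and monocyte markers was 472 and 476 in WT libraries, and 11844 and 1880 in those labelled DKO. Of the 13 markers tested, 10 were called higher (1.38% of all genes), and among the defining markers C1qa and C1qc were at 0 in both WT libraries. In stimulated libraries the same sum was 327 and 175 in WT, and 457 and 365 in those labelled DKO, and Mrc1 was at 0 in all of them.

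The promoter sequences had no part in the selection, but the genes were listed by symbol as interferon response genes, many of which carry the ISRE. A share of ISRE cores above that of all genes therefore goes with the list and shows nothing about these libraries. RefSeq windows from 250 bases before to 50 bases after the start on GRCm38.p6 were found for 27 of the 36 genes, some with several starts. The ISRE core was searched on both strands as GAAA, any 2 bases and GAAA. It was present in 13 of the 27 genes (48.1%), against 3.99% of the 27025 genes with a promoter in the same table. Before the start alone it was present in 10 of the 27 (37.0%), against 3.46%. The core of the gamma-activated site, to which STAT dimers bind, was searched as TTC, any 3 bases and GAA, and was present in 8 of the 27 (29.6%), against 9.55% of all genes. The 250 bases before the start are printed for the 4 IFIT genes that lay furthest apart between the stimulated groups, for Isg15, which held the most cores, and for Oasl2, in whose window no core was found. Each runs 5′ to 3′ on the strand of the gene, and capitals mark an ISRE core on either strand.
Ifit1, chr19:34640639-34640888, plus strand: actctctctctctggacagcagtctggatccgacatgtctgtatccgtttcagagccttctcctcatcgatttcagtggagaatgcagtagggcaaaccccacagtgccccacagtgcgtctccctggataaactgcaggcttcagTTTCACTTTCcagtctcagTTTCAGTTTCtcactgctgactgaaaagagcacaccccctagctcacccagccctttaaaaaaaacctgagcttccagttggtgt
Ifit3, chr19:34583279-34583528, plus strand: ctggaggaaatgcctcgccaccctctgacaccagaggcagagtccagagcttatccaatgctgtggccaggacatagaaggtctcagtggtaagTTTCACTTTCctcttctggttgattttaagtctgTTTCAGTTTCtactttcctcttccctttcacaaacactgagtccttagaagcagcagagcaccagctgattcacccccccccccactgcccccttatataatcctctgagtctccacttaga
Ifit3b, chr19:34607707-34607956, plus strand: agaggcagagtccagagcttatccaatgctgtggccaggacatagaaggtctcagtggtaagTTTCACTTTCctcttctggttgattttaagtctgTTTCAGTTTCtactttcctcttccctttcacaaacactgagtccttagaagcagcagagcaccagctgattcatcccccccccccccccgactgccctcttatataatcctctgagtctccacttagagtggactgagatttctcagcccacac
Ifit1bl1, chr19:34601969-34602218, minus strand: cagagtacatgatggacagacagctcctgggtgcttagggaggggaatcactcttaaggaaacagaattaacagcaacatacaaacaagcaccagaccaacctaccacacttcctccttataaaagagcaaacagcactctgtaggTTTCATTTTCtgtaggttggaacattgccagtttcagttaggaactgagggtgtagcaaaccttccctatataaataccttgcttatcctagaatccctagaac
Isg15, chr4:156200819-156201068, minus strand: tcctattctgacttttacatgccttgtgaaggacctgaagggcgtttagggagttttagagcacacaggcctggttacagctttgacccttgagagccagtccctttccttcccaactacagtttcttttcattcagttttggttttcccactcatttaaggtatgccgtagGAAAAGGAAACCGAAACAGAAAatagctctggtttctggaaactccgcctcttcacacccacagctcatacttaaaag
Oasl2, chr5:114896684-114896933, plus strand: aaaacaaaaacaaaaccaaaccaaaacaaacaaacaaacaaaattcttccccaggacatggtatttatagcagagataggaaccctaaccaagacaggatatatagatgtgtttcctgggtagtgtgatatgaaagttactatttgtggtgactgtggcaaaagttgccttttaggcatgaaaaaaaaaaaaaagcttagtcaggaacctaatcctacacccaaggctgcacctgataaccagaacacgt

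Ifit1 held 2 cores that begin 104 and 85 bases before the start. Ifit3 and Ifit3b held the same pair of cores 34 bases apart, and their windows share an identical run of 169 bases. Isg15 held 3 cores, each overlapping the next, that begin 78, 72 and 66 bases before the start. In the remaining genes with a core it lay within the same windows (the map of cores by distance from the start), after the start in Ifih1, Ddx58 and Eif2ak2. Oas2, Mx1, Usp18, Rtp4, Zbp1, Dhx58, Parp9, Parp14 and Ifi27l2a had no entry in the table.

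**Figure D1:**
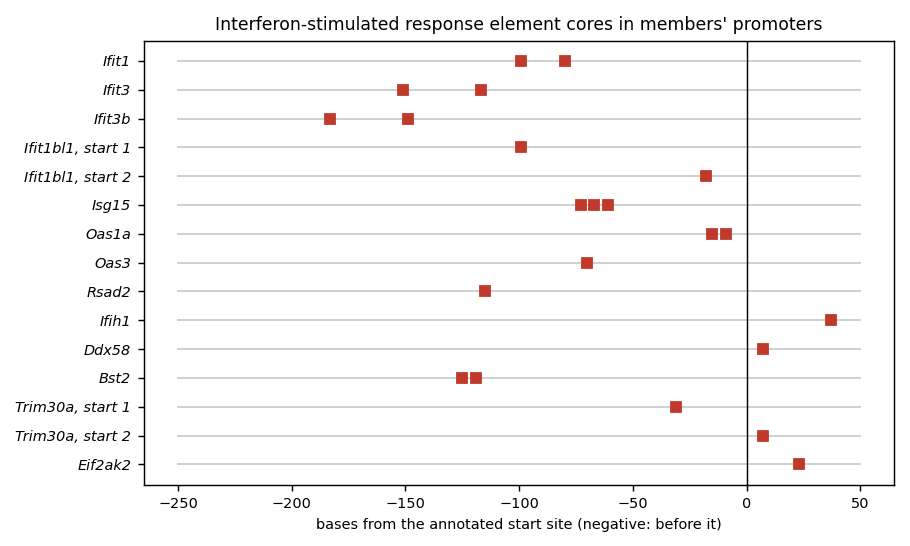
Distance in bases from the annotated start to the centre of each ISRE core (squares) in the 15 promoter windows of 13 members that hold one, with the searched window drawn as a grey line. Cores lie within 130 bases before the start except in Ifit3 and Ifit3b, and in Ifih1, Ddx58, Eif2ak2 and a second start of Trim30a they lie after it.

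After stimulation, most of the genes lay higher in the libraries labelled DKO. In 29 of the 36 both libraries labelled DKO lay above both WT libraries, in 0 both lay below, and in 7 the groups overlapped, whereas 24.3% of all genes tested lay above and 23.1% below. The log2 fold change was positive for 35 of the 36 genes (51.4% of all genes; 33 to 36 of the 36 with 1 library left out), with a median of 0.87 against 0.02 over all genes. Of the 36, 5 passed the limma adjusted p of 0.05 together with a change of more than 1.5-fold, as did 0.162% of all genes, and 0 were called lower (0.11%). At an unadjusted p under 0.05 with the same fold, 23 were higher (5.6% of all genes) and 0 lower (6.95%). The number called depended on the tool. DESeq2 on the recovered reads called 18 higher (1.63% of all genes) and 0 lower (1.94%), and edgeR called 0 higher (0.00649%) and 0 lower (0.0%). Because the genes had been selected on the stimulated libraries labelled DKO, these counts describe the set and test nothing. The 2 libraries labelled DKO also differed from each other: 31 of the 36 genes were higher in replicate 2 than in replicate 1, against 50.3% of all genes, with a median difference of 0.47 on the log2 scale. Without replicate 1 the median fold change was 1.12, and without replicate 2 it was 0.68.

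**Figure D2:**
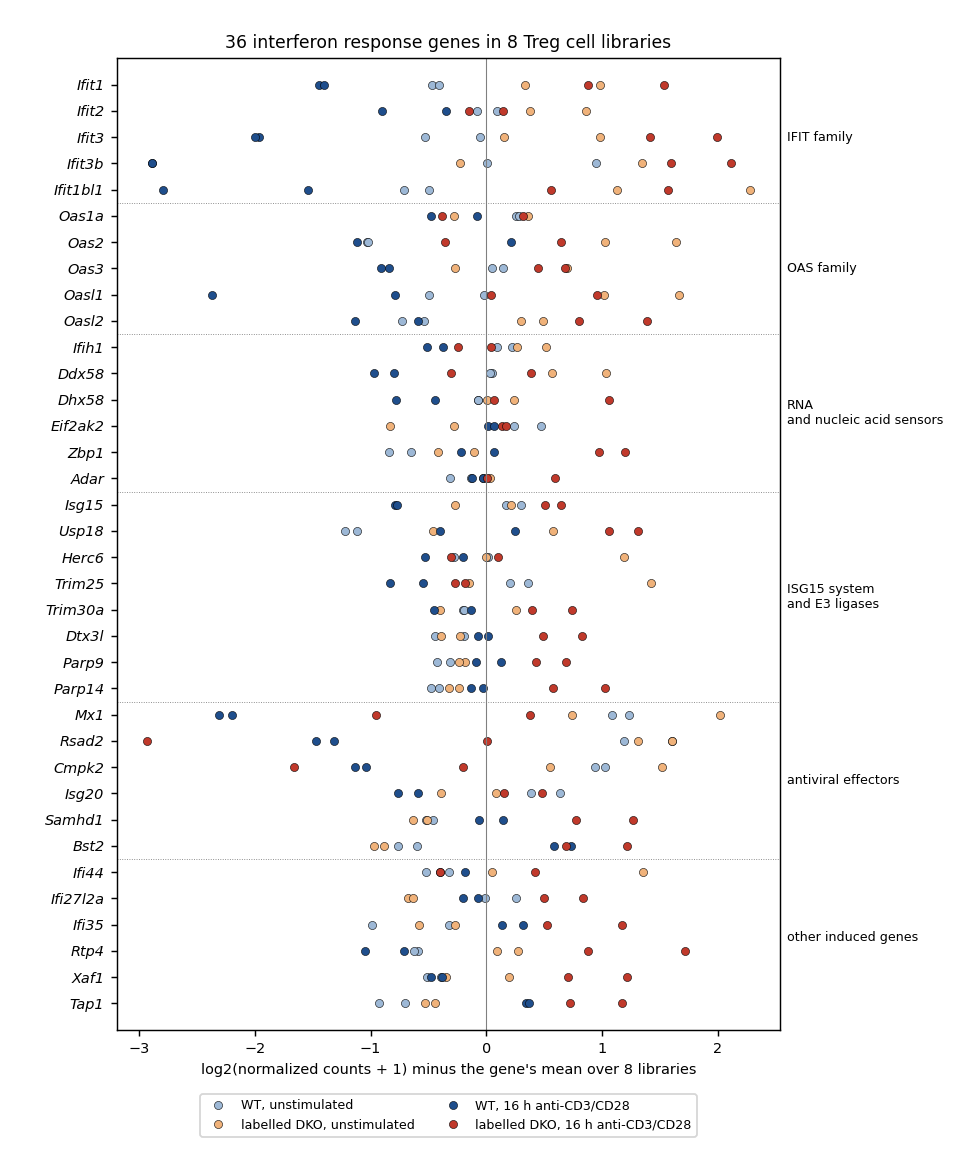
Each point is 1 library, with log2(normalized counts + 1) given relative to the mean of the gene over 8 libraries on the x axis and the 36 genes by role on the y axis. Both stimulated libraries labelled DKO (red) lie above both stimulated WT libraries (dark blue) in 29 genes, and Mx1, Rsad2 and Cmpk2 are lower after stimulation in both genotypes.

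The IFIT family, whose proteins bind foreign RNA and block its translation, lay furthest apart. Ifit1 had 106 and 109 normalized counts in the stimulated WT libraries, and 536 and 845 in those labelled DKO. These groups were separated by a log2 fold change of 2.63 (standard error 0.30). In unstimulated cells Ifit1 was at 209 and 219 in WT libraries, and at 576 and 367 in libraries labelled DKO. All libraries labelled DKO thus lay above all WT libraries, in either state. Ifit3 had 12.5 and 12.2 normalized counts in stimulated WT libraries, and 139 and 209 in those labelled DKO, a log2 fold change of 3.69 (standard error 0.45). Before stimulation it had 49.6 and 35.5 in WT libraries, and 103 and 57.4 in libraries labelled DKO. Stimulated WT libraries thus lay below the unstimulated ones, and stimulated libraries labelled DKO above theirs. Ifit3b had no read in either stimulated WT library and 21.4 and 31.2 normalized counts in those labelled DKO (27 and 37 reads), at least 11.4-fold higher with the WT libraries set at the floor of 3 reads each. In unstimulated cells it had 6.47 and 13.3 in WT libraries, and 17.8 and 5.34 in those labelled DKO, which overlap. Of the 50-base words of the Ifit3 transcript, the length of the reads, 51.5% also occur in Ifit3b, so that reads of the pair are separated only in part. Ifit1bl1, a relative of Ifit1, had 36.6 and 88.8 normalized counts in stimulated WT libraries, and 383 and 775 in those labelled DKO. Its log2 fold change was 3.23 (standard error 0.50) and ran from 2.60 without WT replicate 1 to 3.86 without WT replicate 2. Ifit2 had the smallest difference of the family, with 216 and 317 in stimulated WT libraries, and 364 and 446 in those labelled DKO.

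The oligoadenylate synthetases make the short signal molecules that activate RNase L, and the family includes the Oasl genes, whose proteins resemble them. Oasl2 had 131 and 192 normalized counts in stimulated WT libraries, and 503 and 759 in those labelled DKO, a log2 fold change of 1.96 (standard error 0.29). Before stimulation it had 199 and 174 in WT libraries, and 357 and 407 in libraries labelled DKO. The ranges were apart in both states, as they were for Oasl1. Oasl1 had 17.9 and 5.32 in stimulated WT libraries, and 32.6 and 62.5 in those labelled DKO, and before stimulation it had 31.3 and 22.2 in WT, and 65.0 and 103 in those labelled DKO. Oas3 had 160 and 153 in stimulated WT libraries, and 393 and 461 in those labelled DKO. Its unstimulated values overlapped, at 318 and 298 in WT libraries, and 469 and 239 in those labelled DKO. Oas2 was separated before stimulation and not after it. Unstimulated WT libraries held 32.4 and 32.5 normalized counts of it, and 211 and 138 in those labelled DKO, but overlapped after stimulation at 30.4 and 78.2 in WT, and 106 and 52.3 in those labelled DKO. Oas1a stayed between 37.2 and 67.1 in all 8 libraries, and 57.1% of its 50-base words are shared with Oas1g.

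Among the sensors of nucleic acid, both stimulated libraries labelled DKO lay above both WT libraries in all 6 genes (24.3% of all genes). The genes had been selected on these libraries, so this count is a description only. Zbp1, which binds nucleic acid in the Z conformation, had 1628 and 1984 normalized counts in stimulated WT libraries, and 3721 and 4355 in those labelled DKO. It had 1204 and 1055 in unstimulated WT libraries, and 1760 and 1421 in those labelled DKO. Zbp1 was therefore higher after stimulation in both genotypes and highest in the stimulated libraries labelled DKO. Ddx58 encodes the RNA helicase RIG-I. It had 507 and 572 in stimulated WT libraries, and 802 and 1303 in those labelled DKO, below the unstimulated values of 1031 and 1018 in WT libraries, and 2031 and 1473 in those labelled DKO. Dhx58, which encodes the RIG-I relative LGP2, had 53.8 and 68.3 in stimulated WT libraries, and 97.7 and 195 in those labelled DKO. Before stimulation it had 88.5 and 88.6 in WT libraries, and 110 and 93.5 in those labelled DKO, a narrow range beside the stimulated one. Eif2ak2 encodes PKR, the kinase that stops translation when it binds double-stranded RNA, and it had the smallest stimulated difference of the group, with 874 and 904 in WT libraries, and 949 and 972 in those labelled DKO. Ifih1 and the RNA editing enzyme Adar had log2 fold changes of 0.34 and 0.37.

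ISG15 is a ubiquitin-like protein that is attached to other proteins by HERC6 and removed by USP18, which also dampens signalling at the interferon receptor. Isg15 had 127 and 129 normalized counts in stimulated WT libraries, and 345 and 313 in those labelled DKO, a log2 fold change of 1.35 (standard error 0.26). In unstimulated cells it had 271 and 248 in WT libraries, and 256 and 183 in libraries labelled DKO, which overlap. Isg15 thus lay lower after stimulation in WT libraries and higher in those labelled DKO. Usp18 had 320 and 205 in stimulated WT libraries, and 671 and 564 in those labelled DKO, against 124 and 115 in unstimulated WT libraries, and 404 and 196 in those labelled DKO. Parp14, an ADP-ribosyltransferase, had 5968 and 6427 in stimulated WT libraries, and 9778 and 13332 in those labelled DKO, against 4693 and 4944, and 5551 and 5241 before stimulation. Parp9 and its partner, the ligase Dtx3l, had log2 fold changes of 0.54 and 0.69 in stimulated cells. The ligase Trim30a had one of 0.86. Herc6 overlapped between stimulated groups, and Trim25, which modifies RIG-I, had 6456 normalized counts in replicate 2 of the unstimulated libraries labelled DKO against 2168 to 3087 in the other unstimulated libraries.

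The antiviral effectors differed among themselves. Samhd1, which degrades deoxynucleotides, had 16418 and 18965 normalized counts in stimulated WT libraries, and 29493 and 41454 in those labelled DKO. It had 12503 and 12016 in unstimulated WT libraries, and 11079 and 12085 in those labelled DKO. The 2 genotypes overlapped before stimulation and were apart after it. Mx1 encodes a GTPase that blocks viruses, although C57BL/6 mice are known to carry a defective allele. It had 83.1 and 75.3 in unstimulated WT libraries, and 145 and 58.8 in those labelled DKO, but only 6.24 and 6.83, and 17.5 and 45.6, after stimulation. Rsad2, which encodes viperin, and its neighbour Cmpk2, a nucleotide kinase, were likewise low after stimulation. Rsad2 had 14.8 and 16.7 in stimulated WT libraries, and 4.76 and 43.1 in those labelled DKO, against 99.3 to 133 in the unstimulated libraries. Its stimulated log2 fold change was -0.07 (standard error 0.77), and its 2 libraries labelled DKO lay on either side of WT. The sign turned with the setting, to 0.06 with a pseudocount of 5, 0.58 with edgeR and 0.60 with DESeq2, and ran from -1.54 to 1.40 with 1 library left out. Isg20, an exonuclease, had 159 and 179 in stimulated WT libraries, and 301 and 379 in those labelled DKO. Bst2, which tethers budding virus, overlapped between genotypes after stimulation.

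**Figure D3:**
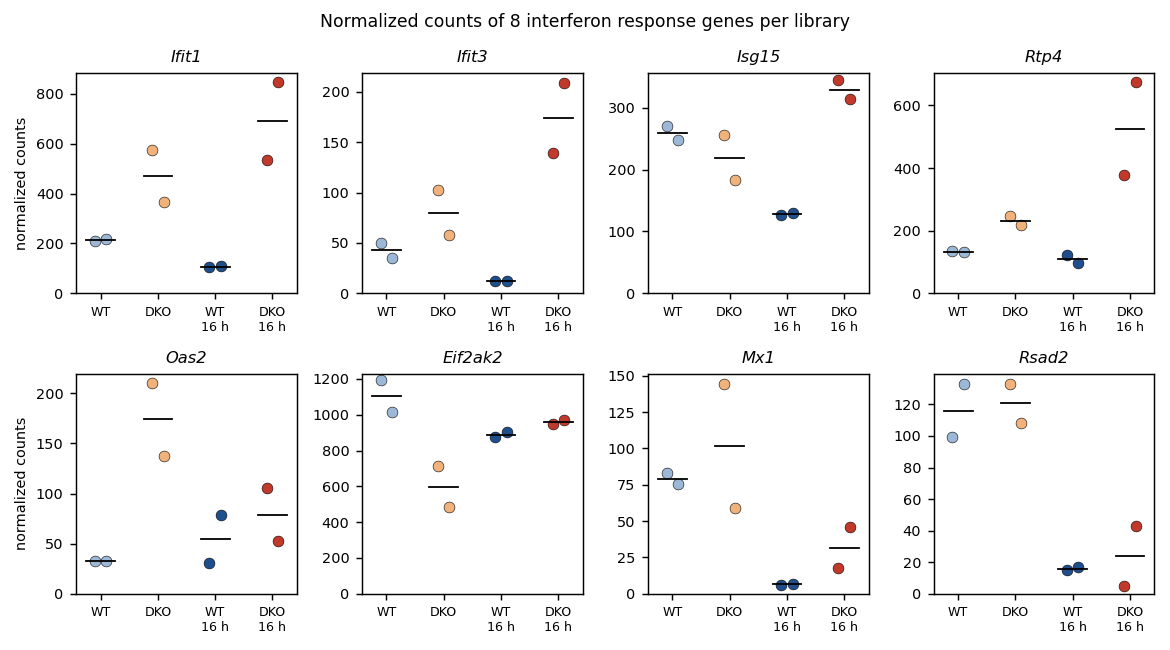
Normalized counts (y axes from 0) of 8 members in the 2 libraries of each group (points) with the group mean (line). By group mean, Ifit1, Ifit3, Isg15 and Rtp4 are lowest in stimulated WT libraries and highest in stimulated libraries labelled DKO, Oas2 is highest in unstimulated libraries labelled DKO, Eif2ak2 is lowest there, and Mx1 and Rsad2 are low after stimulation.

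Of the remaining genes, Rtp4, a receptor chaperone, had 124 and 98.0 normalized counts in stimulated WT libraries, and 376 and 674 in those labelled DKO, a log2 fold change of 2.18 (standard error 0.32). Before stimulation it had 135 and 131 in WT libraries, and 246 and 218 in those labelled DKO. Rtp4 followed the order of Ifit1. Xaf1, which binds the apoptosis inhibitor XIAP, had 327 and 304 in stimulated WT libraries, and 693 and 986 in those labelled DKO, against 297 to 488 in the unstimulated libraries. Ifi27l2a had 667 and 730, and 1085 and 1363, after stimulation, but 40.8% of its 50-base words occur in Ifi27l2b. The peptide transporter gene Tap1 and Ifi35 were higher after stimulation in both genotypes, with log2 fold changes between the stimulated genotypes of 0.60 and 0.62, and Ifi44 overlapped.

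Over the 4 groups, the stimulated libraries labelled DKO had the highest mean for 21 of the 36 genes, and the unstimulated libraries labelled DKO for 12. The stimulated WT libraries had the lowest mean for 21 genes and the highest for 0. No share over all genes is given for these orders. The genes had been selected for a rise in the stimulated libraries labelled DKO, so the counts describe the set only. With stimulation, 20 of the 36 lay below and 10 above in WT libraries, against 36.0% and 35.0% of all genes, with a median log2 change of -0.29. In libraries labelled DKO, 9 lay below and 19 above, against 30.6% and 30.8%, with a median of 0.57. Zbp1, Usp18, Parp14, Samhd1, Tap1, Bst2 and Ifi35 lay higher after stimulation in both genotypes, whereas Ifit2, Ddx58, Ifih1, Mx1, Rsad2, Cmpk2, Trim25 and Oasl1 lay lower in both. Isg15, Ifit3, Rtp4 and Isg20 were among those that lay lower in WT libraries and higher in those labelled DKO. In such bulk samples, fewer cells of a type and less RNA per cell cannot be told apart, and both stimulation changes share the lane difference described above.

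The genotype difference in unstimulated cells used the stimulated libraries only for its spread, estimated over all 8, and reached the threshold for 3 genes. Whether the selection had used the unstimulated libraries is not stated. Two-sided limma tests with Benjamini-Hochberg adjustment over 15419 genes called 2 of the 36 genes higher in libraries labelled DKO (1.38% of all genes were called higher) and 1 lower (3.35%). The genes called were Ifit1bl1, Oas2 and Eif2ak2. Ifit1bl1 had 159 and 185 normalized counts in WT libraries, and 1266 and 569 in those labelled DKO, and rose by 2.30 on the log2 scale (standard error 0.50, limma adjusted p = 0.032). Oas2 rose by 2.36 on the log2 scale (standard error 0.52, limma adjusted p = 0.035). Eif2ak2 fell from 1195 and 1016 to 712 and 485, which is -0.91 on the log2 scale (standard error 0.22, limma adjusted p = 0.048).

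In 19 of the 36 genes both unstimulated libraries labelled DKO lay above both WT libraries, and in 4 below, against 26.5% and 27.1% of all genes. The median log2 fold change was 0.23 against -0.01 over all genes. At an unadjusted p under 0.05 and more than 1.5-fold, 9 genes were higher (8.68% of all genes) and 3 lower (11.1%). DESeq2 called 5 higher (3.38% of all genes) and 2 lower (5.3%), and edgeR called 1 higher (0.85%) and 0 lower (2.29%). Of the genes named above, Ifit1 (log2 fold change 1.10, limma adjusted p = 0.069), Oasl2 (1.03, limma adjusted p = 0.073) and Usp18 (1.23, limma adjusted p = 0.080) did not pass after adjustment. The calls of Ifit1bl1 and Oas2 were lost without either WT library and without labelled DKO replicate 1, and that of Eif2ak2 without either WT library, without labelled DKO replicate 2, under both rescalings of the libraries and with the 4 unstimulated libraries fitted alone. Without labelled DKO replicate 1, in which the macrophage marker sum was 11844, the median was 0.13 and 22 genes had a positive fold change in place of 29 (49.7% of all genes with all libraries). Of the 36 genes, 29 were higher in that replicate than in replicate 2, against 7 the other way. The part of the macrophage transcripts in these differences was not tested. The methods describe a flow cytometric sort of CD4+ cells with high CD25, separated by YFP, which does not select macrophages.

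**Figure D4:**
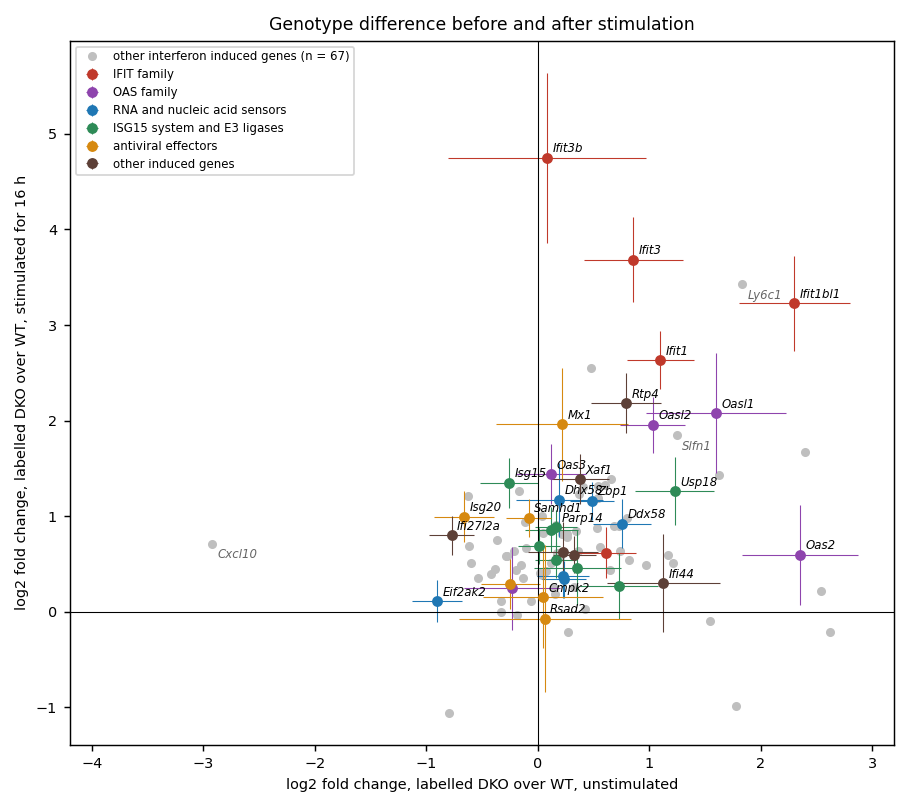
Log2 fold change of libraries labelled DKO over WT in unstimulated cells (x axis) and stimulated cells (y axis) for 36 members by role, with standard errors of the limma fit as bars, and for 67 other interferon-induced genes (grey). Of the members, Ifit3b, Ifit3, Ifit1bl1 and Ifit1 lie highest, Ifit1bl1 and Oas2 lie furthest right, and Eif2ak2, Isg20 and Ifi27l2a lie left of 0 and above it.

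Other cell types were followed by their markers beside these results. Over stimulated libraries the B cell markers summed to 1106 and 234 in WT, and 1646 and 350 in those labelled DKO, and were high in replicate 1 of both genotypes. The part of B cell transcripts in the interferon response was not tested. Macrophage markers were low in all stimulated libraries. The plasmacytoid dendritic cell marker Siglech had 2.34 and 0, and 15.9 and 0. In unstimulated libraries the B cell markers summed to 352 and 383 in WT, and 3805 and 924 in those labelled DKO. Of the 10 markers, 2 were called higher (1.38% of all genes). In 7 of them both libraries labelled DKO lay above both WT libraries (26.5%). Of 8 Treg and T cell genes 3, Ctla4, Ikzf2 and Tnfrsf18, were called lower in unstimulated cells (3.35%). In 6 of the 8 both unstimulated libraries labelled DKO lay below both WT libraries (27.1% of all genes). After stimulation 0 of the 8 were called lower (0.11%), and in 5 both libraries labelled DKO lay below both WT libraries (23.1%). Of the markers of plasmacytoid dendritic cells (5 tested), conventional dendritic cells (4), CD8 T and NK cells (7), neutrophils (3) and erythroid cells (2), limma called 0 in either state. At an unadjusted p under 0.05 with more than 1.5-fold, 3, 2, 0, 2 and 1 of them, in that order, were higher in unstimulated cells (8.68% of all genes). In stimulated cells it was 1, 0, 0, 1 and 0 (5.6%). Most genes of naive T cells differed in the same direction as the interferon response genes in stimulated libraries. The 9 summed to 14173 and 13720 in WT, and 28926 and 39552 in those labelled DKO, and 1, Igfbp4, was called higher (0.162% of all genes). Of the 9, both libraries labelled DKO lay above both WT libraries in 8 (24.3% of all genes). They lay below in 1 (23.1% of all genes), Il7r, which encodes the interleukin 7 receptor. Their part in the interferon response was not tested.

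**Figure D5:**
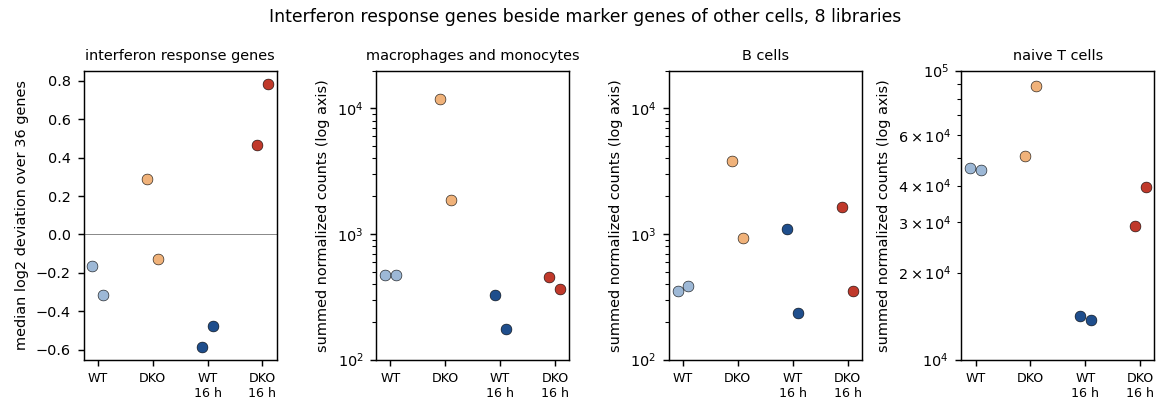
For each of 8 libraries (points), the median over 36 interferon response genes of the log2 deviation from the mean of each gene (left), and the summed normalized counts of macrophage and monocyte, B cell and naive T cell markers (log axes). The median is highest in the stimulated libraries labelled DKO (0.47 and 0.78), the macrophage sum is highest in the unstimulated libraries labelled DKO, and the naive T cell sum is lowest in stimulated WT libraries.

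The pathway above the response genes was examined with lists that do not overlap with the 36 genes. These lists, and that of further interferon-induced genes below, were written with earlier results of these data known. They are therefore not independent of those results. Of 21 interferon ligand genes, 19 had at most 3 reads in every library, Ifnb1 among them, so that they were not detectable at this depth. Ifng, the gene of interferon gamma, had 899 and 322 normalized counts in stimulated WT libraries, and 1201 and 198 in those labelled DKO, which overlap, and Ifnk stayed between 3.12 and 48.1 in all libraries. None of the 11 receptor and transducer genes tested was called in either state by limma. At an unadjusted p under 0.05 with more than 1.5-fold, 3 were higher in stimulated cells (5.6% of all genes), and 2 were lower in unstimulated cells (11.1%). Ifnar1, the signalling chain of the receptor, had 1266 and 1382 normalized counts in stimulated WT libraries, and 2203 and 3402 in those labelled DKO (log2 fold change 1.05, limma adjusted p = 0.088). In unstimulated cells it had 5258 and 5096 in WT, and 2890 and 4057 in those labelled DKO, -0.60 on the log2 scale (limma adjusted p = 0.176). The other chain, Ifnar2, overlapped in both states.

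Stat2 had 1312 and 1525 normalized counts in stimulated WT libraries, and 2227 and 2910 in those labelled DKO (log2 fold change 0.85, limma adjusted p = 0.088). Irf9 had a log2 fold change of 0.43 and Jak1 of 0.33, both with groups apart, while Tyk2 and Ifngr1 overlapped at -0.01 and 0.01. Of the factors that act on interferon genes, Irf7 had 158 and 151 in stimulated WT libraries, and 347 and 476 in those labelled DKO (log2 fold change 1.39, limma adjusted p = 0.054). It had 363 and 301 in unstimulated WT libraries, and 499 and 542 in those labelled DKO. Irf7 was lowest in the stimulated WT libraries. Irf1 (0.96, limma adjusted p = 0.189) and Irf3 (0.40, limma adjusted p = 0.581) did not pass either. None of 16 genes of the induction machinery and 7 negative regulators was called in either state by limma. At an unadjusted p under 0.05 with more than 1.5-fold, 4 of the 16 and 1 of the 7 were higher in stimulated cells (5.6% of all genes). In unstimulated cells 2 of the 16 and 0 of the 7 were higher (8.68%).

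Of 72 further interferon-induced genes, some of which, such as Stat2, Irf7 and Irf9, are also in the lists above, 67 were tested. In unstimulated cells 6 were called higher (1.38% of all genes) and 1 lower (3.35%). Those higher were Ly6c1 (log2 fold change 1.83, limma adjusted p = 0.011), Slfn1 (1.25, limma adjusted p = 0.030), Il18bp (1.21), Parp11 (1.16), Slfn8 (0.97) and Ifi47 (0.80). Ly6c1 encodes a surface protein of the Ly6 family, Slfn1 and Slfn8 are Schlafen genes, Il18bp encodes a decoy for interleukin 18, and Ifi47 a GTPase. The 1 lower gene, the chemokine Cxcl10, fell from 1581 and 1557 normalized counts in WT libraries to 186 and 228, which is -2.92 on the log2 scale (standard error 0.32, limma adjusted p = 0.004). In stimulated cells, 2 were called higher (0.162% of all genes) and 0 lower. Ly6c1 had 115 and 156 normalized counts in WT libraries, and 1328 and 1572 in those labelled DKO (log2 fold change 3.43, standard error 0.28, limma adjusted p = 0.003). Slfn1 had 683 and 694, and 2134 and 2871 (log2 fold change 1.85, limma adjusted p = 0.039). Without labelled DKO replicate 1, Ly6c1, Ifi47 and Cxcl10 kept their unstimulated call and the others lost it, and without either WT library all were lost. In stimulated cells both calls were lost without WT replicate 1 and without labelled DKO replicate 2, and that of Slfn1 also without WT replicate 2. In 48 of the 67 genes both stimulated libraries labelled DKO lay above both WT libraries, and in 2 below (24.3% and 23.1% of all genes), with a median log2 fold change of 0.62. In unstimulated cells the counts were 28 and 8 (26.5% and 27.1% of all genes), with a median of 0.22. Among 8 interferon gamma and class II genes tested, H2-DMb1 was called higher in unstimulated cells, at 1.08 and 2.95 in WT libraries, and 70.2 and 16.0 in those labelled DKO (log2 fold change 3.60, and 2.57 and no longer called without labelled DKO replicate 1). It is given beside the macrophage and B cell markers given above, whose part was not tested.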

How the data were processed

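RNA of Treg cells was sequenced as single 50-base reads in 8 libraries, grouped by the labels. The deposited values are a signal, not counts: the authors scaled the reads of each gene by a library size factor and rounded the result. Per the methods, the authors aligned reads with Bowtie to NCBIM37, removed PCR duplicates with Picard and counted with HTSeq. The submitters' processing notes instead name STAR 2.7, bcl2fastq 1.8.4, DESeq2 and mm10, so the aligner and build of the values are not settled, and positions are printed for RefSeq promoters on GRCm38.p6 alone. All values were whole multiples of 1 read (tolerance 0.02 normalized counts, 100% whole), and whole reads were recovered by division. With 11851853 to 16306540 reads per library, a gene with no more than 3 reads in either library of a group was taken as at the floor, which covers counting error only. The sources say that each sample was a pool of mice. The p-values of the main fit rest on the spread between the 2 pools of a group, taken over all 4 groups and moderated across genes.

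Log2(normalized count + 1) of 15419 genes with a mean of at least 10 was fitted with limma 3.58.1 (R 4.3.3, eBayes with a trend) in 1 model of 4 groups, checked on simulated data. Tests were two-sided, and calls needed p under 0.05 after Benjamini-Hochberg adjustment and over 1.5-fold. All log2 differences are on the log2(value + 1) scale, which understates low genes. The study's methods name DESeq2, and it is an alternative here, as is edgeR, because the values were not counts. The members and the lists, among them markers of T cells, naive T cells, B cells, macrophages, dendritic cells, CD8 T and NK cells, neutrophils and erythroid cells, were chosen with earlier results of these data known. Every member was accounted for by role. Values in every library are given for members called in either genotype contrast or among the 3 largest stimulated changes of their role, and some others were chosen after their values were seen. Other genes are named if called, if receptors or transducers, or as Irf1, Irf3, Irf7, Ifng or Ifnk, and a gene to which this applies is not reported here. Shared 50-base words were counted among transcripts of coding genes, by symbol. Alternatives were pseudocounts of 0.1 and 5, every gene above 0, a mean of at least 100, 2 rescalings, edgeR 4.0.16 and DESeq2 1.42.0 on recovered reads, the 4 libraries of a contrast, the unadjusted p, each library left out, a replicate block and a shorter promoter window.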

Additional observations from a re-analysis of the deposited data

Results flagged for a closer look

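In 12 of 143 genes, 3 of them among the 36 response genes, both libraries labelled DKO lay below both WT libraries in unstimulated cells and above both in stimulated cells, as they did in 2.77% of all 15419 genes tested. For Isg20, Ifi27l2a and Eif2ak2 the genotype difference in stimulated minus unstimulated cells was 1.66, 1.57 and 1.02 on the log2 scale. These differences were not tested, because the genes had been selected on the stimulated libraries. Before stimulation, Isg20 was at 421 and 353 normalized counts in WT libraries, and 287 and 206 in those labelled DKO, while Ifi27l2a had 913 and 758, and 479 and 493.

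Outside the 36 genes, the same opposite order held for Ifnar1 (1.64), Jak2 (1.69), Ube2l6 (1.83), Tapbp (1.31), Shisa5 (1.11), Psmb8 (1.11), Ticam1 (0.88), Oas1c (0.87) and Traf3 (0.60). These 9 were picked for the opposite order, so that their differences were not tested either. With a limma interaction term over all genes, added after seeing the data, none of the 107 other pathway genes passed the adjusted p of 0.05, with 20 at an unadjusted p under 0.05, and 0 of 15419 genes did, with 1257 at an unadjusted p under 0.05.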

How the results depend on the processing

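In unstimulated cells, the members called higher and lower were 9 and 3 with the unadjusted p, 0 and 0 with every gene above 0, 1 and 2 at a mean of at least 100, 1 and 0 with edgeR, and 5 and 2 with DESeq2. The count of members called lower was 0 with a pseudocount of 0.1, with either rescaling, and with the 4 libraries of the contrast. The share of all genes called higher moved as well, from 1.38% in the main fit to 8.68% with the unadjusted p, 0.85% with edgeR and 3.38% with DESeq2. For the other settings of this paragraph no such share is given. Leaving out 1 library changed the calls too and gave medians from 0.13 to 0.49. Other pathway genes called higher were 17 with the unadjusted p (5 lower), 2 with every gene above 0 and 1 with the 4 libraries.

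In stimulated cells, the members called higher were 23 with the unadjusted p, 2 with a pseudocount of 0.1, 0 with every gene above 0, 0 with edgeR, 18 with DESeq2 and 0 with the 4 libraries. The share of all genes called higher was 0.162% in the main fit, 5.6% with the unadjusted p, 0.00649% with edgeR and 1.63% with DESeq2. For the other settings of this paragraph it is not given. Without 1 library the calls changed too, and the median ran from 0.68 to 1.12. Other pathway genes called higher were 36 with the unadjusted p, 1 with a pseudocount of 0.1, 4 with one of 5, 1 with every gene above 0, 4 at a mean of at least 100, 1 with edgeR, 21 with DESeq2 and 1 with the 4 libraries. None was called lower under any of these in stimulated cells.

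Both stimulated genotypes hold replicates 1 and 2. The deviations of libraries with the same number correlated at 0.17, and no label says that a number marks a shared batch, so the pairing was not used. With the replicate block 16 members and 24 other pathway genes were called higher, as were 1.24% of all genes. The unstimulated groups share no number, so no block could be fitted there.

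Directions that turned were all of genes not called in that state in the main fit. With equal totals and equal upper quartiles the unstimulated log2 fold changes were 0.0373 and 0.0798 for Samhd1, and 0.0496 and 0.0920 for Ifnar2, and 0.0247 for Il10rb with upper quartiles. These rescalings moved the median of all genes in unstimulated cells to 0.11 and 0.15. With 1 library left out, log2 fold changes ran from -0.70 to 0.87 for Ifit3b, -0.42 to 0.86 for Mx1, -0.37 to 0.60 for Oas3, -0.55 to 0.09 for Oas1a, -0.15 to 0.27 for Rsad2, -0.11 to 0.56 for Ifi35, -0.11 to 0.14 for Dtx3l, -0.43 to 0.53 for Cmpk2, -0.21 to 0.45 for Trim30a, -0.43 to 1.14 for Trim25, -0.19 to 0.0523 for Ifnar2, -1.07 to 0.24 for Ifngr1, -0.62 to 1.10 for Ifngr2, -0.29 to 0.0179 for Il10rb, -0.52 to 0.58 for Irf1, -0.19 to 0.34 for Irf9 and -0.12 to 0.64 for Jak1, and in stimulated cells from -0.12 to 0.15 for Ifngr1 -0.18 to 0.15 for Tyk2, -0.10 to 0.59 for Oas1a, -0.07 to 1.26 for Oas2, -0.10 to 0.71 for Ifi44, -0.58 to 0.89 for Cmpk2 and -1.54 to 1.40 for Rsad2. Over all settings, the direction turned in 11 of the 36 members in unstimulated and 5 in stimulated cells. The causes were not tested. The number of members with an ISRE core was 13, and 10 before the start alone.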
